A study of Homo sapiens with 8 samples.

Results

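MAP3K7 and its partners TAB1, TAB2 and TAB3 are 4 of the 23590 genes listed for K562 cells with an inducible SF3B1 transgene. Members were taken by gene symbol in the transcript lists, followed by transcript accession through all 8 libraries, with assembled spliced transcripts that share their introns added. This gave 12 transcripts told apart by their chain of introns, of 58973 in all: 7 of MAP3K7, 2 of TAB1, 2 of TAB2 and 1 of TAB3. The lists carry TAB1 only under its RefSeq accessions, which a RefSeq gene table named.

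The libraries fall into 4 groups of 2. K700E_induced cells carried a transgene for SF3B1 with the K700E substitution and received doxycycline at 1 ug/ml for 48 h, and K700E_uninduced cells carried the same transgene without doxycycline. WT_induced cells carried a transgene for wild-type SF3B1 and received the same dose, and WT_uninduced cells carried that transgene without doxycycline. All groups were K562, a human erythroleukaemia line, grown with 10% serum, and the labels name no change to the cells' own SF3B1 genes. The labels do not say whether each transgenic line was 1 clone or a pool. SF3B1 is the spliceosome subunit that helps to hold the branch point, and the design addressed expression and splicing after induction.

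MAP3K7 encodes the kinase TAK1, which receives signals from the interleukin-1, tumour necrosis factor, Toll-like and TGF-beta receptors. TAB1 binds the kinase and promotes its autophosphorylation, while TAB2 and TAB3 tether it to polyubiquitin chains. The active complex phosphorylates the I-kappaB kinases and the kinases above JNK and p38. MAP3K7 is a known target of mutant SF3B1, which uses cryptic acceptors upstream of the reference ones, and the resulting MAP3K7 transcript is out of frame.

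The 4 MAP3K7 exons on which the results turn are shown here, from GENCODE transcript ENST00000369329.7 on the minus strand of GRCh38. They are exon 4, whose donor is spliced to either of 2 acceptors, exon 5, and the alternative exons 12 and 16. Capitals in exon 5 mark the first stop codon within exon 5 in the frame left by a 20-nt insertion before it. Exons 4, 12 and 16 have no capitals.
MAP3K7 exon 4, chr6:90561622-90561667: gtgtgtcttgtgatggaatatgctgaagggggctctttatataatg
MAP3K7 exon 5, chr6:90560076-90560214: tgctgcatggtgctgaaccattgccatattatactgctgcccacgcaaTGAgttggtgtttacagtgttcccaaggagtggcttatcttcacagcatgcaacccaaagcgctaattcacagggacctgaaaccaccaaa
MAP3K7 exon 12, chr6:90544552-90544632: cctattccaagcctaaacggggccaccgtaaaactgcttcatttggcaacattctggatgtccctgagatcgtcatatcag
MAP3K7 exon 16, chr6:90518447-90518562: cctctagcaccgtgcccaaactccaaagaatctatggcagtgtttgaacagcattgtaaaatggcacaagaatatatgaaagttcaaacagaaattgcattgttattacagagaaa

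The files place MAP3K7 on hg19 at chromosome 6, from 91223292 to 91297020 on the minus strand, and 16 of its 17 exons have the same length in both builds. Exon 5 follows 343 coding nucleotides. An insertion of 20 nt leaves a remainder of 2 after division into codons, and the stop in capitals then begins at nucleotide 49 of exon 5. The inserted intron bases themselves were not read here, so an earlier stop within them was not looked for. Exon 12 is 81 nt long, or 27 codons without an in-frame stop, so its loss shortens the reading frame to 579 codons, against 606 with all exons. Loss of the 116-nt exon 16 shifts the frame and leaves 518 codons.

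The values are FPKM per transcript as deposited by the authors, and a gene's level is the sum over its transcripts. Nothing says that the replicates of a group were separate cultures, so the p-values measure only the spread between these libraries, which may be technical. Read totals are not used here. Coverage per unit of FPKM was 3.29 to 4.77 across libraries, and the typical deposited interval was 5.78% to 6.39% of the value on each side. The erythroid markers were present in all 8 libraries, with GATA1 at 212.4 to 302.8 FPKM and HBG1 at 1030 to 3271 FPKM. Among genes listed as markers of other cell types, MS4A1 was at 0 throughout and CD3E and COL1A2 were above 0 in 1 library each. EPCAM, an epithelial adhesion gene on that list, was at 8.17 to 40.3 FPKM in all 8, COL1A1 was at 0.682 to 11.8 FPKM in all 8, and PECAM1 reached 1.20 FPKM with 7 above 0. Their part in the results was not tested. In these lists SF3B1 is not divided between the cells' own transcript and any from the transgene. It had 29.0 and 39.5 FPKM in K700E_induced libraries, against 34.6 and 30.4 FPKM in K700E_uninduced libraries. It had 36.6 and 27.3 FPKM in WT_induced libraries, against 37.7 and 31.7 FPKM in WT_uninduced libraries. Induction of either transgene was not visible in the listed SF3B1, with log2 differences of 0.06 and -0.13 and an adjusted p of 1 for both in limma. Whether reads of the transgene are counted in SF3B1 was not checked.

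MAP3K7 was expressed in every library at a middling level, and its total passed the test in no comparison. In bulk RNA, fewer cells that express a gene and less of its RNA per cell cannot be told apart. It had 14.7 and 6.66 FPKM in K700E_induced libraries, against 11.6 and 12.4 FPKM in K700E_uninduced libraries. It had 27.1 and 10.3 FPKM in WT_induced libraries, against 12.8 and 13.9 FPKM in WT_uninduced libraries. The induced libraries spread on both sides of the uninduced ones in both lines, and the highest of the 8 values was in WT_induced replicate 1. Group means ± SD (n = 2 each) were 10.7 ± 5.71 FPKM in K700E_induced, 12 ± 0.584 in K700E_uninduced, 18.7 ± 11.8 in WT_induced and 13.3 ± 0.807 in WT_uninduced. In the order of means, WT_induced stood first, then WT_uninduced, K700E_uninduced and K700E_induced. The values of neighbours in that order overlapped, except between the 2 uninduced groups. There, both K700E_uninduced values lay below both WT_uninduced values, a separation that 32.4% of tested genes also showed between these groups.

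The mean of MAP3K7 over the 8 libraries, 13.7 FPKM, lay at the 54.9th percentile of the 11374 genes tested. TAB2 averaged 11.3 FPKM (48.9th percentile), TAB1 averaged 10.7 FPKM (47.3rd percentile) and TAB3 averaged 7.38 FPKM (36.2nd percentile). The kinase and its 3 partners thus sat within a factor of 1.85 of each other in mean FPKM, which is a level per length of transcript.

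**Figure D1:**
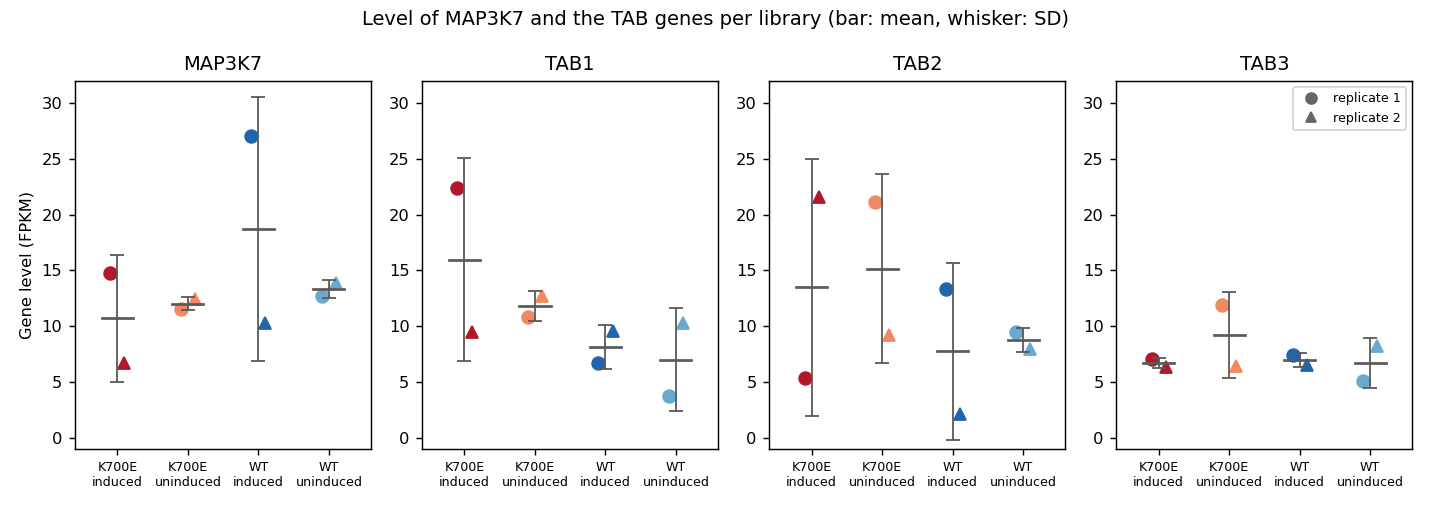
Gene level in FPKM (vertical axis) of MAP3K7, TAB1, TAB2 and TAB3 in each library, by group. Circles are replicate 1 and triangles replicate 2, horizontal bars are group means and whiskers SD (n = 2). Replicates of a group lie far apart for TAB2, at 5.35 and 21.6 FPKM in K700E_induced, and close together for TAB3 in the same group.

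By limma's moderated test over all 11374 genes, the log2 fold change of MAP3K7 was -0.26 in K700E_induced against K700E_uninduced, with a standard error of 0.629 and an adjusted p of 1. Its 95% interval ran from -1.70 to 1.19, so a change of 2-fold in either direction lay within it. In this comparison 0 of the 4 members passed an adjusted p of 0.05, and 0.00879% of all genes did. Between the induced lines MAP3K7 differed by -0.73 (interval -2.18 to 0.72, adjusted p 0.951), with 0 of 4 members called against 0.0264% of all genes. Leaving out WT_induced replicate 1 brought this difference to -0.05, and leaving out WT_induced replicate 2 brought it to -1.42. Wild-type induction gave 0.32 (interval -1.13 to 1.77, adjusted p 1), with 0 of 4 called against 0.00879%. The uninduced lines differed by -0.16 (interval -1.60 to 1.29, adjusted p 1), with 0 of 4 called against 0.0% of all genes. Neither the interaction of line and induction (-0.57, adjusted p 0.999) nor K700E_induced against the other 3 groups (-0.47, adjusted p 0.945) called any member, and each called 0.0176% of all genes.

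At an unadjusted p under 0.05 limma found 484 to 598 genes in each of the 6 comparisons, and the smallest unadjusted p of a member was 0.209, for TAB1 in K700E_induced against the other 3 groups. Replicate numbers coincide with sequencing lanes in the file labels. Within lane 1 the log2 difference of MAP3K7 was 0.33 on K700E induction and 1.06 on wild-type induction, and within lane 2 it was -0.85 and -0.41. The direction on induction thus differed between the lanes in both lines. Over the 4 members and 4 pairwise comparisons, the lanes gave opposite directions in 10 of 16. These comparisons share libraries, and the share over all genes was not counted, so nothing particular to the members is read from it.

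The forms of MAP3K7 differed far more between libraries than its total. Of its 7 forms, 4 are annotated: NM_145331 holds both alternative exons, NM_003188 lacks exon 12, NM_145332 lacks exon 16 and NM_145333 lacks both. The other 3 were assembled from the reads of these libraries. Each library had 1 or 2 of the 7 above 0. Cufflinks divides reads among overlapping forms by estimation and lists an assembled form only where it built one, so a form at 0 here was given no reads and may still be present.

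**Figure D2:**
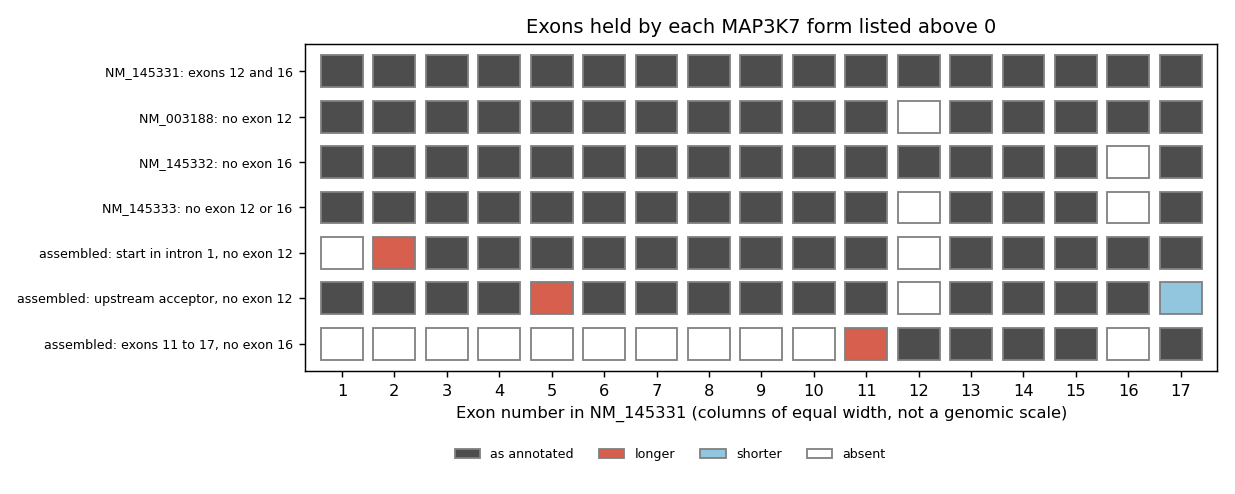
Exons held by each MAP3K7 form listed above 0 in any library. Rows are forms, columns are the 17 exons of NM_145331 at equal width, and colour says whether an exon is as annotated, longer, shorter or absent. Exons 2, 5 and 11 are each longer in 1 form, exon 12 is absent from 4 forms and exon 16 from 3.

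Both K700E_induced libraries were assigned NM_145331 together with an assembled form of 14 introns that starts in intron 1 and lacks exons 1 and 12. In replicate 1 NM_145331 had 5.84 FPKM (39.7% of the gene) and the 14-intron form 8.89 FPKM (60.3%, deposited interval 8.18 to 9.60). In replicate 2 they had 1.34 FPKM (20.2%) and 5.32 FPKM (79.8%, interval 4.81 to 5.82). The form began 58 nt upstream of exon 2 in replicate 1 and 77 nt upstream in replicate 2, at 91281584 and 91281603 on hg19, and then followed the annotated exons to the same 3′ end. The 2 starts, 1 from the list of each library, lie within 19 nt of each other.

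The uninduced K700E libraries were split otherwise, between annotated forms only. In replicate 1 NM_145331 had 7.99 FPKM (69.0%) and NM_003188 had 3.595 FPKM (31.0%). In replicate 2 NM_145333 had 8.74 FPKM (70.4%) and NM_145332 had 3.67 FPKM (29.6%). These replicates of 1 group shared no MAP3K7 form.

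In WT_induced replicate 1 an assembled form of 15 introns had 25.1 FPKM (92.8%, interval 23.4 to 26.8), with NM_003188 at 1.95 FPKM (7.19%). That form used the upstream acceptor of exon 5, lacked exon 12 and ended 171 nt into the 3109-nt exon 17, which made it 2168 nt long. In WT_induced replicate 2 NM_003188 took the whole 10.3 FPKM. In WT_uninduced replicate 1 NM_145331 had 8.57 FPKM (67.3%) and NM_003188 had 4.17 FPKM (32.7%). In WT_uninduced replicate 2 NM_003188 had 7.65 FPKM (55.1%), and the rest, 6.24 FPKM (44.9%), was an assembled form of 5 introns that runs from exon 11 to exon 17 without exon 16. Its exon 11 is 321 nt long, against 130 nt as annotated, so this form too begins inside an intron, the one before exon 11.

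**Figure D3:**
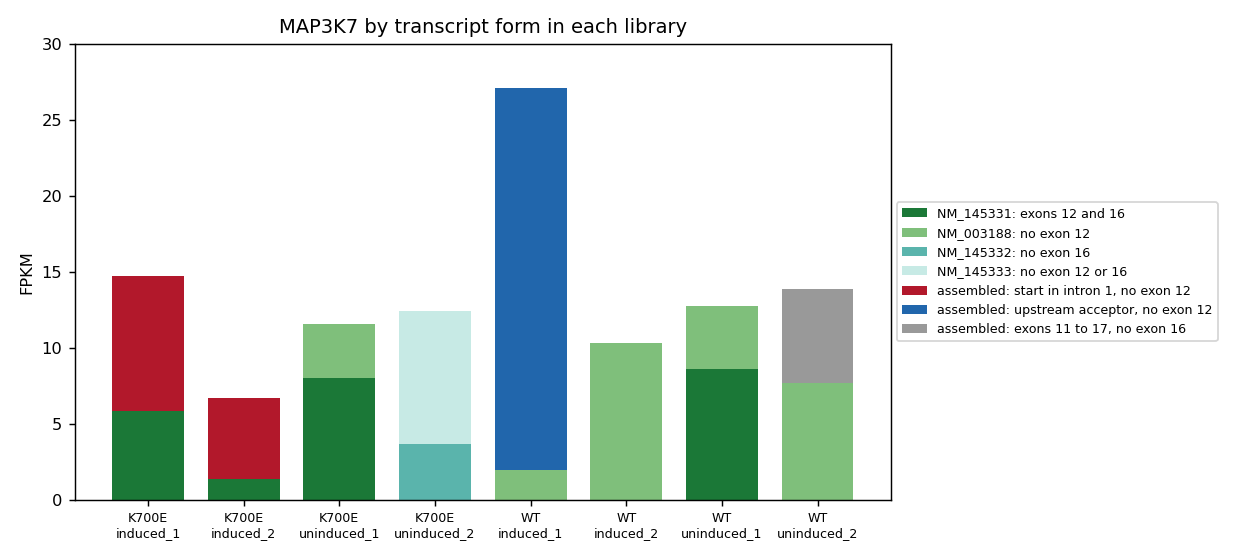
MAP3K7 FPKM (vertical axis) in each of the 8 libraries, stacked by transcript form. The assembled form that starts in intron 1 appears in both K700E_induced libraries, and the form with the upstream acceptor fills 92.8% of WT_induced replicate 1.

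The form that starts in intron 1 was listed in both K700E_induced libraries and in 0 of the other 6. It entered the fit of transcript shares only through those 2 libraries, so its ratio to the rest of the gene restates where it was listed, and the size of that ratio depends on the pseudocount. On K700E induction the log2 ratio differed by 5.73 with the pseudocount of 0.5 FPKM, by 8.15 with 0.1 FPKM and by 4.66 with 1 FPKM, and it did not pass in limma over the 24623 transcripts tested (adjusted p 0.901, 0.862 and 0.922). Of the 12 member transcripts 8 had a mean share of 5% to 95% and were tested, 6 of MAP3K7 and 2 of TAB2. Of these 0 passed in any of the 6 comparisons, where 0.0% of all transcripts passed. NM_145333, the other assembled forms of MAP3K7 and the assembled form of TAB2 were each above 0 in 1 library. They entered the fit only through that library, so their ratios too restate where they were listed. At an unadjusted p under 0.05 there were 906 to 986 transcripts per comparison.

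Because exon 1 is missing from that form, the splice between exons 1 and 2 carried 5.84 and 1.34 FPKM in K700E_induced libraries, or 39.7% and 20.2% of the gene. It carried all MAP3K7 FPKM, 11.6 and 12.4, in K700E_uninduced libraries. In WT_induced libraries it carried all of 27.1 and 10.3 FPKM, against 12.8 FPKM (100%) and 7.65 FPKM (55.1%) in WT_uninduced libraries. The K700E_induced values are those of NM_145331 alone, so their place below the other 6 libraries restates where the form starting in intron 1 was listed. How many introns of other genes separate in this way was not counted. The splice between exons 2 and 3, at 14.7 and 6.66 FPKM in K700E_induced libraries, did not show this order.

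Exon 12 was included in 39.7% and 20.2% of MAP3K7 FPKM in K700E_induced libraries, against 69.0% and 29.6% in K700E_uninduced libraries. In WT_induced libraries it was included in 0% and 0%, against 67.3% and 44.9% in WT_uninduced libraries. For exon 12 the K700E groups overlapped, while both WT_induced values lay below both WT_uninduced values. Taken by replicate number, inclusion was lower in the induced library in all 4 pairs, but replicate numbers did not pair the samples. No test was run, and how many exons of other genes do the same was not counted. Exon 16 was included in 100% of FPKM in both K700E_induced libraries, against 100% and 0% in K700E_uninduced libraries. It was included in 100% in both WT_induced libraries, against 100% and 55.1% in WT_uninduced libraries.

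The upstream acceptor of MAP3K7, the site linked to mutant SF3B1, was listed in 1 library, and that library was of the wild-type transgene. Exon 5 begins at 91269953 on hg19 when the upstream acceptor is used and at 91269933 when the reference one is used, 20 nt apart, for an exon of 159 nt in place of the 139 nt shown above. In WT_induced replicate 1 the upstream site held 25.1 FPKM and the reference site 1.95 FPKM, an upstream share of 92.8%, with deposited coverage of 121.6 and 9.42. Its share was 0% in both K700E_induced libraries, where the reference site held 14.7 and 6.66 FPKM at a coverage of 65.96 and 23.2. It was also 0% in both K700E_uninduced libraries, in WT_induced replicate 2 and in both WT_uninduced libraries. FPKM and coverage at a site are sums over the whole forms that hold it, not counts of reads across the splice. A share of 0% therefore says only that no form with the upstream site was listed.

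The mean upstream share was 0% in K700E_induced and 15.5% in the other 6 libraries. With 1 library above 0, a two-sided exact permutation test of K700E_induced against the others could not pass on these values, so no p is given. In limma the log2 ratio of upstream to reference site was -3.86 in K700E_induced against WT_induced (standard error 2.81, adjusted p 0.888) and 3.86 in WT_induced against WT_uninduced (standard error 2.81, adjusted p 0.938). The pair entered this fit only through WT_induced replicate 1, so these ratios restate where the upstream site was listed. Their p-values are no separate evidence. Without that library the pair has no upstream value, and the ratios become 0.05 and -0.04, set by the reference site and the pseudocount. No call was made among the 1499 acceptor pairs within 50 nt in these comparisons, where 0.0% of pairs passed and 72 and 56 had an unadjusted p under 0.05. K700E_induced against the other 3 groups gave -1.20 (adjusted p 0.935), where 0.0667% of pairs passed. This was the only such pair among the 4 members.

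The excess of MAP3K7 in WT_induced replicate 1 was absent from a scale that does not divide by length. FPKM is a level per length, and multiplying each form's FPKM by its length in kb gives a value that follows the number of fragments. On that scale MAP3K7 had 71.1 and 31.5 in K700E_induced libraries, against 59.6 and 62.0 in K700E_uninduced libraries. It had 64.4 and 52.5 in WT_induced libraries, against 65.5 and 62.3 in WT_uninduced libraries. WT_induced replicate 1 was no longer high, and the ratio of highest to lowest library was 2.26, against 4.07 in FPKM. The log2 difference on wild-type induction turned to -0.13 on this scale and that on K700E induction was -0.35, both with an adjusted p of 1 in limma. Between the induced lines it was -0.30 (limma adjusted p 0.977).

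**Figure D4:**
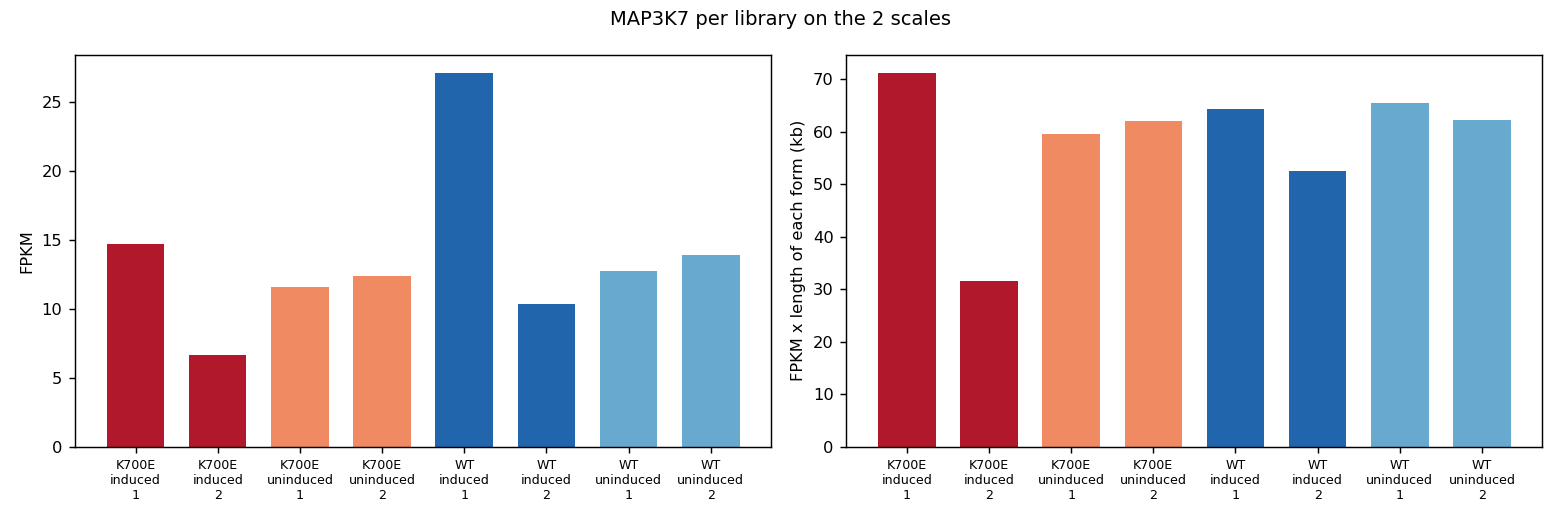
MAP3K7 in each library in FPKM (left panel) and as the FPKM of each form times its length in kb (right panel). WT_induced replicate 1 is highest at 27.1 in FPKM and stands at 64.4 among values of 31.5 to 71.1 when multiplied by length.

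TAB1, the activating subunit, had higher group means in the K700E line than in the WT line, with overlapping values and without passing any test. It had 22.4 and 9.503 FPKM in K700E_induced libraries, against 10.9 and 12.8 FPKM in K700E_uninduced libraries. It had 6.73 and 9.53 FPKM in WT_induced libraries, against 3.74 and 10.3 FPKM in WT_uninduced libraries. Both K700E_uninduced values exceeded both WT_uninduced values (32.4% of genes separate these groups). They also exceeded both WT_induced values, a pair of groups for which the share over all genes was not counted. On either induction and between the induced lines the groups overlapped. Over all tested genes the groups did not overlap in 33.7% on K700E induction, 29.0% on wild-type induction and 32.8% between the induced lines. Group means ± SD (n = 2 each) were 15.96 ± 9.13 in K700E_induced, 11.8 ± 1.34 in K700E_uninduced, 8.13 ± 1.98 in WT_induced and 7.0 ± 4.61 FPKM in WT_uninduced.

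The log2 fold change of TAB1 in limma was 0.31 on K700E induction (interval -1.27 to 1.88, adjusted p 1) and 0.33 on wild-type induction (interval -1.24 to 1.91, adjusted p 1). It was 0.82 between the induced lines (interval -0.75 to 2.40, adjusted p 0.951) and 0.85 between the uninduced lines (interval -0.73 to 2.42, adjusted p 0.972). Between the induced lines it was 1.66 in lane 1 and -0.0045 in lane 2, and between the uninduced lines 1.42 and 0.30. The line difference was thus mostly that of replicate 1, where WT_uninduced had the lowest TAB1 value of all.

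All TAB1 FPKM was on NM_006116, on the plus strand of chromosome 22 from 39795759 to 39827887. The other annotated form, NM_153497, which has another last exon, was at 0 in all 8 libraries. A non-coding transcript that overlaps the end of NM_153497, NR_040535, was at 3.52 FPKM in WT_induced replicate 2 and at 0 elsewhere. No spliced form of TAB1 was assembled.

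TAB2, one of the 2 polyubiquitin-binding adaptors, was the least steady member between replicates. It had 5.35 and 21.6 FPKM in K700E_induced libraries, against 21.1 and 9.20 FPKM in K700E_uninduced libraries. It had 13.3 and 2.12 FPKM in WT_induced libraries, against 9.497 and 7.96 FPKM in WT_uninduced libraries. Replicates differed 4.04-fold within K700E_induced and 6.28-fold within WT_induced, and in opposite directions. The deposited intervals of these replicates did not touch, at 4.93 to 5.77 and 20.8 to 22.5 FPKM in K700E_induced and at 12.7 to 13.97 and 1.82 to 2.43 FPKM in WT_induced, so the gap exceeded the estimation error within a library.

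Across the 8 libraries the highest TAB2 value was 10.2 times the lowest. Of the 3937 genes with a mean of 5 to 20 FPKM and a value above 0 in all libraries, 80.8% had a smaller ratio, and their median was 4.49. The ratio was 5.99 for TAB1 (64.1% smaller), 4.07 for MAP3K7 (44.7% smaller) and 2.33 for TAB3 (13.2% smaller). In FPKM, TAB2 and TAB3 thus lay toward opposite ends of the spread for genes of their level.

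Group means ± SD (n = 2 each) of TAB2 were 13.5 ± 11.5 FPKM in K700E_induced, 15.2 ± 8.45 in K700E_uninduced, 7.73 ± 7.93 in WT_induced and 8.73 ± 1.09 in WT_uninduced. Its log2 fold change in limma was -0.34 on K700E induction (interval -2.56 to 1.87, adjusted p 1) and -0.61 on wild-type induction (interval -2.83 to 1.61, adjusted p 1). It was 0.91 between the induced lines (interval -1.31 to 3.13, adjusted p 0.963), made up of -1.24 in lane 1 and 3.08 in lane 2. Between the uninduced lines it was 0.64 (interval -1.57 to 2.86, adjusted p 0.98).

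NM_015093, with 9 exons on the plus strand of chromosome 6 from 149639436 to 149732747, held all TAB2 FPKM in 7 libraries. In K700E_uninduced replicate 1 it had 6.61 FPKM, and an assembled form of 6 introns and 2354 nt held the other 14.5 FPKM (68.7%, interval 13.2 to 15.9). The assembled form starts 437 nt upstream of NM_015093, at 149638999, and its 153-nt first exon is joined across an intron of 51893 nt to an exon of 191 nt. GENCODE transcript ENST00000637181.1 on GRCh38 has a first intron of the same length followed by an exon of the same length. The assembled form ends 173 nt into its last exon, at 149730885. From annotated transcripts alone the log2 fold change on K700E induction becomes 0.46. With FPKM multiplied by length, TAB2 averaged 59.3 ± 50.6 in K700E_induced and 51.8 ± 16.2 in K700E_uninduced (SD, n = 2 each), the opposite order to that in FPKM, and the log2 fold change was -0.09 (limma adjusted p 1).

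TAB3, the other adaptor and an X-linked gene, had the lowest mean FPKM and the smallest ratio of highest to lowest FPKM of the 4 members. With FPKM multiplied by length, that ratio was 2.33 for TAB3 and 2.26 for MAP3K7, and TAB1 had the lowest median, 31.9 against 46.0 for TAB3. It had 7.01 and 6.36 FPKM in K700E_induced libraries, against 11.9 and 6.45 FPKM in K700E_uninduced libraries. It had 7.45 and 6.54 FPKM in WT_induced libraries, against 5.11 and 8.25 FPKM in WT_uninduced libraries. The other 7 values lay between 5.11 and 8.25 FPKM, below K700E_uninduced replicate 1. Group means ± SD (n = 2 each) were 6.69 ± 0.465 FPKM in K700E_induced, 9.18 ± 3.86 in K700E_uninduced, 6.99 ± 0.640 in WT_induced and 6.68 ± 2.22 in WT_uninduced.

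In limma TAB3 gave -0.37 on K700E induction (interval -1.79 to 1.05, adjusted p 1), made up of -0.72 in lane 1 and -0.02 in lane 2. It gave 0.09 on wild-type induction (interval -1.33 to 1.51, adjusted p 1) and -0.06 between the induced lines (interval -1.48 to 1.35, adjusted p 1). Between the uninduced lines it was 0.39 (interval -1.02 to 1.81, adjusted p 0.98). All its FPKM was on NM_152787, on the minus strand of the X chromosome from 30845559 to 30907511. In WT_uninduced replicate 1 an unspliced assembled transcript of 4307 nt covered the last exon and 173 nt beyond it at 3.20 FPKM (interval 2.77 to 3.62). It was left out of the sum, and with it TAB3 would be at 8.31 FPKM there.

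**Figure D5:**
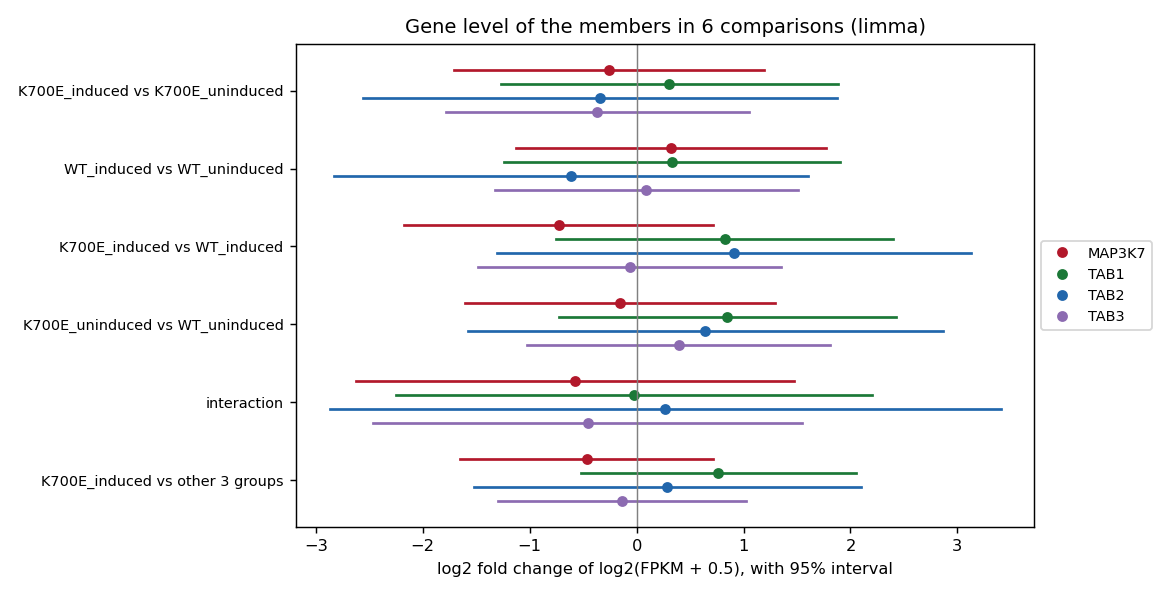
Log2 fold change of each member in 6 comparisons (limma on log2(FPKM + 0.5)), as points with 95% intervals. All 24 intervals cross 0, and those of TAB2 are the widest, from -2.56 to 1.87 on K700E induction.

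Unspliced assembled fragments also lay inside the spans of the members. There were 76 over the 8 libraries, 28 in TAB2, 23 in MAP3K7, 20 in TAB3 and 5 in TAB1, with 6 to 15 per library. They were not counted in gene levels.

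Genes around the complex gave no call either. Of 21 genes upstream (receptors, adaptors and ubiquitin enzymes) 19 were tested on K700E induction, of which 8 had fold changes above 0 and 11 below, with a median of -0.14 against -0.01 over all genes. TNFRSF1A, a receptor for tumour necrosis factor, had 8.76 and 13.9 FPKM in K700E_induced libraries, against 27.8 and 20.7 FPKM in K700E_uninduced libraries. These groups did not overlap, as for 33.7% of all tested genes in this comparison, and the log2 fold change of TNFRSF1A was -1.08 (standard error 0.524, limma adjusted p 1). UBE2N, a ubiquitin-conjugating enzyme that builds the chains bound by TAB2 and TAB3, had 23.1 and 35.2 FPKM in K700E_induced libraries, against 36.8 and 43.2 FPKM in K700E_uninduced libraries (log2 fold change -0.47, limma adjusted p 1).

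Of 17 downstream kinases and transcription factors 16 were tested, with 8 above and 8 below 0 on K700E induction and a median of -0.0006. MAP2K7, a kinase that activates JNK, had 34.3 and 43.9 FPKM in K700E_induced libraries, against 24.7 and 21.6 FPKM in K700E_uninduced libraries (log2 fold change 0.74, limma adjusted p 1). JUN, a transcription factor that JNK phosphorylates, had 13.0 and 22.9 FPKM in K700E_induced libraries, against 11.6 and 10.1 FPKM in K700E_uninduced libraries (log2 fold change 0.66, limma adjusted p 1). For both, the groups did not overlap, as for 33.7% of all tested genes in this comparison, and neither passed the test.

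Inhibitors of the complex, 8 tested of 11, had 3 above and 5 below 0 on K700E induction and the lowest median of the 5 lists, -0.53. TNIP1, which binds the deubiquitinase TNFAIP3, had 4.99 and 21.96 FPKM in K700E_induced libraries, against 29.6 and 30.2 FPKM in K700E_uninduced libraries (log2 fold change -1.45, limma adjusted p 1). TRIM38, a ligase reported to promote loss of TAB2 and TAB3, had 1.27 and 2.26 FPKM in K700E_induced libraries, against 2.54 and 15.1 FPKM in K700E_uninduced libraries (log2 fold change -1.64, limma adjusted p 1). In TNIP1 most of the difference lay in K700E_induced replicate 1, and in TRIM38 in K700E_uninduced replicate 2.

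NF-kappaB target genes, 12 tested of 18, had 5 above and 7 below 0, with a median of -0.16. TNFAIP2 had 14.7 and 20.4 FPKM in K700E_induced libraries, against 8.35 and 6.51 FPKM in K700E_uninduced libraries (log2 fold change 1.18, limma adjusted p 1). CXCL2, a chemokine, had 3.16 and 2.58 FPKM in K700E_induced libraries, against 6.09 and 3.43 FPKM in K700E_uninduced libraries (log2 fold change -0.60, limma adjusted p 1). In the WT line CXCL2 ran from 0.0106 to 52.0 FPKM between the 2 WT_induced replicates, against 5.27 and 9.79 FPKM in WT_uninduced libraries.

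Other MAP3 kinases, 10 tested of 17, had 7 above and 3 below 0 on K700E induction, with a median of 0.20. MAP3K6 had 12.6 and 8.40 FPKM in K700E_induced libraries, against 4.96 and 3.16 FPKM in K700E_uninduced libraries (log2 fold change 1.27, limma adjusted p 1). MAP3K5, a kinase activated by oxidative stress, had 13.1 and 16.6 FPKM in K700E_induced libraries, against 8.51 and 13.9 FPKM in K700E_uninduced libraries (log2 fold change 0.42, limma adjusted p 1). In K700E_induced against WT_induced the medians of the 5 lists ran from -0.56 for the NF-kappaB targets to 0.04 for the downstream genes, with 0 of their genes called.

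The genes whose log2 level followed a member most closely over the 8 libraries, of 7526 compared, are given as a description, since all points share their libraries and a few libraries set the order. For MAP3K7 they were SLC37A1 (r = 0.955), ARIH2 (0.938) and EDF1 (0.937), all highest in WT_induced replicate 1 and lowest in K700E_induced replicate 2. For TAB1 they were FAM32A (0.948), GGT7 (0.934) and TBL3 (0.933), all lowest in WT_uninduced replicate 1 and highest in K700E_induced replicate 1. For TAB2 they were TET3 (0.941), TBC1D7 (0.916) and FAF2 (0.914), all lowest in WT_induced replicate 2 and highest in K700E_induced replicate 2. For TAB3 they were PIGT (0.933), ATP5G3 (0.911) and SLC25A44 (0.907), all highest in K700E_uninduced replicate 1. These are likenesses in FPKM. With FPKM multiplied by length, MAP3K7 was highest in K700E_induced replicate 1, at 71.1, as was TAB1, at 72.3.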

How the data were processed

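Total RNA of K562 cells was depleted of ribosomal RNA and sequenced, per the labels' protocols. Per the submitters' processing notes, the authors used CASAVA, TopHat and Cufflinks with the hg19 build; their versions were not given in the sources used here. They deposited, per library, FPKM and coverage for each transcript, with confidence limits. Each list holds 41224 reference and 24926 to 45570 assembled transcripts on the primary chromosomes.

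A gene's level was the summed FPKM of its reference transcripts and of assembled spliced transcripts of 300 nt or more assigned to it by shared introns. Of the accessions, 33520 were named by the files, 7340 by a RefSeq gene table and 289 by introns, and 115 were unnamed. Libraries were scaled by median ratios over 7585 genes (factors 0.99 to 1.04). Genes with a mean of 1 FPKM or more were fitted as log2(FPKM + 0.5) with limma 3.58.1 in R 4.3.3 (4 group means, Benjamini-Hochberg adjustment, threshold 0.05), a scale that understates changes of low genes. Transcript shares between 5% and 95%, and acceptor pairs with 1 FPKM in all and 0.1 FPKM on the lesser site, were fitted as log2 ratios. Printed FPKM values are unscaled. The fits were tested on simulated data.

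Members and lists were chosen with earlier results of these data known. Named genes were the members, SF3B1, the 2 genes per list with the largest absolute fold change on K700E induction above 5 FPKM and above 0 in all libraries, and the 3 genes most like each member. Alternatives were other pseudocounts, filters, scaling, samples and a replicate block. Python 3.11.15 and pandas 2.3.3 were used. One marker gene of another cell type is not reported here.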

Additional observations from a re-analysis of the deposited data

How the results depend on the processing

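With 0 members called in every comparison, no alternative brought a call. The form starting in intron 1 entered its fit only through the K700E_induced libraries, and the acceptor pair only through WT_induced replicate 1. The alternatives for these therefore restate where they were listed. Of the values that leave out no library, 198 kept their direction and 5 reversed. Part of the 198 could not reverse. Dropping the filter, fitting the compared groups alone and adding a replicate block all leave the differences themselves unchanged. Annotated transcripts alone likewise cannot move TAB1 or TAB3, which have no spliced assembled form. From annotated transcripts alone, MAP3K7 gave -1.02 on wild-type induction and 0.25 between the uninduced lines, and TAB2 gave 0.46 on K700E induction and -0.16 between the uninduced lines, since assembled forms then count for nothing. With FPKM multiplied by length, an alternative chosen after seeing the data, MAP3K7 gave -0.13 on wild-type induction. Leaving out 1 library kept 204 directions and reversed 28. A pairwise difference could not change when the library left out was in neither of its groups. The ranges of log2 differences were as follows. MAP3K7 ran from -0.80 to 0.29 on K700E induction, from -0.37 to 1.00 on wild-type induction, from -1.26 to 0.11 for the interaction and from -1.01 to 0.0803 for K700E_induced against the other groups. Its acceptor ratio ran from -0.0444 to 7.76 on wild-type induction, from -7.76 to 0.0454 between the induced lines and from -2.50 to 0.10 against the other groups, all set by WT_induced replicate 1. TAB1 ran from -0.29 to 0.91 on K700E induction, from -0.33 to 0.99 on wild-type induction and from -0.69 to 0.64 for the interaction. TAB2 ran from -1.30 to 0.61 on K700E induction, from -1.82 to 0.60 on wild-type induction, from -0.30 to 2.12 between the induced lines, from -0.94 to 1.47 for the interaction and from -0.67 to 1.25 against the other groups. TAB3 ran from -0.75 to 0.016 on K700E induction, from -0.22 to 0.40 on wild-type induction and from -0.16 to 0.0327 between the induced lines. Some ranges that kept their sign were also wide: between the induced lines MAP3K7 ran from -1.42 to -0.05 and TAB1 from 0.23 to 1.42, and between the uninduced lines TAB1 ran from 0.19 to 1.51, TAB2 from 0.10 to 1.19 and TAB3 from 0.0108 to 0.78. Replicate numbers did not pair the samples: replicate differences correlated between groups at -0.0309 to 0.0819. With a replicate block 0 members were called. The design is balanced, so the block could not change the differences, and MAP3K7 again gave -0.26 on K700E induction. Read counts are not used here, so depth is known only through coverage.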
